A study of Mus musculus with 8 samples.

Results

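Leukocytes find their way between marrow, blood, lymph nodes and tissue by means of surface receptors, and the 9 genes described here encode such receptors: the chemokine receptors Cxcr4, Ccr7, Cxcr5, Cxcr2 and Ccr9, the sphingosine-1-phosphate receptor S1pr1, the integrin alpha chains Itga4 and Itgal, and the selectin ligand Selplg. They were chosen by name, as every probe set whose only annotated gene is a member, which gave 9 of the 18194 genes and 18 of the 45101 probe sets on the array. Of these, 17 were bright enough to be tested and 1 of the 5 probe sets of Itga4 was not. Itga4 and Ccr9 had 5 probe sets each, Itgal had 2, and the other 6 genes had 1.

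Blood was taken on Day 7 from 8 female C57BL/6J mice that were 6 to 8 weeks old at purchase, before acclimation. RST mice (n = 4) were held in ventilated tubes for 6 h per day. Control mice (n = 4) were left in peace but went without food and water over those hours. RNA of each mouse was hybridized to its own Mouse Genome 430 2.0 GeneChip, and each value is the log2 expression level of a probe set, so that a difference of 1 is a doubling. The comparison asks whether 7 days of restraint altered the receptors with which blood leukocytes home, since stress is known to move leukocytes between blood, marrow and tissues.

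In a chemokine receptor, binding of a ligand couples to Gi proteins and steers the cell up the gradient. CXCR4 binds CXCL12 and keeps leukocytes and progenitors in the bone marrow, while CXCR2 binds CXCL1 and related chemokines and draws neutrophils out of it. CCR7 and CXCR5 guide lymphocytes to the T cell zones and to the B cell follicles of lymphoid organs, CCR9 guides T cells to thymus and small intestine, and S1PR1 lets lymphocytes leave lymphoid organs for the blood. The chains encoded by Itga4 and Itgal pair with beta chains to form VLA-4 and LFA-1, which arrest rolling cells on the vessel wall, and PSGL-1, encoded by Selplg, carries the rolling itself.

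Promoters are shown for Cxcr4, Cxcr2 and Itga4, which stood on different sides in the comparison that follows, because glucocorticoids are hormones of the stress response. Entries of RefSeq (build GRCm38.p6, 250 bases before to 50 after the transcription start) matched 4 of the 9 genes, Ccr9 being the other. The capitals mark the 6-base sequence AGAACA, or TGTTCT on the opposite strand, that the glucocorticoid receptor recognizes as part of its binding element.
Cxcr4, chr1:128592250-128592549, minus strand: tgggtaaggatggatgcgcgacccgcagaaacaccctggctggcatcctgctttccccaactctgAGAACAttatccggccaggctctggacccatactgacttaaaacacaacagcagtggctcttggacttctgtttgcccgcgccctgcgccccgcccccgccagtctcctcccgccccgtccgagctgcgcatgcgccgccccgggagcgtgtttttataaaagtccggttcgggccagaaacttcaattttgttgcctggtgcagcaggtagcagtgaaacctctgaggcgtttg
Cxcr2, chr1:74153744-74154043, plus strand: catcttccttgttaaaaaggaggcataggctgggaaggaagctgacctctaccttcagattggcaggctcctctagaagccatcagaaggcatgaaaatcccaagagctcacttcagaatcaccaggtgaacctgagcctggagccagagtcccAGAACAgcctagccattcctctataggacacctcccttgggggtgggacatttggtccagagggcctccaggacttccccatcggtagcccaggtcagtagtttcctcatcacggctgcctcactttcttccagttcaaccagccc
Itga4, chr2:79255176-79255475, plus strand: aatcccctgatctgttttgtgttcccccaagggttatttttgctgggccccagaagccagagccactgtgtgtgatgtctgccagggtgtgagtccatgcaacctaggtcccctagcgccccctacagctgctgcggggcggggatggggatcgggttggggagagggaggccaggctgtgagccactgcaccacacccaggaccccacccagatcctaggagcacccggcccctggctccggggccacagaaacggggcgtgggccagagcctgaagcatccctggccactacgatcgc
The hexamer began 185 bases before the start in Cxcr4 and 96 bases before it in Cxcr2. No match lay in the windows of Itga4 and Ccr9. It is a common sequence, found on either strand in 19.0% of 32851 promoters of the same length, and a match is a description of the letters only.

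The lymphocyte homing receptors S1pr1, Ccr7 and Cxcr5 and the integrin chain Itga4 had lower means in RST mice, whereas Cxcr4 was nearly level and the neutrophil receptor Cxcr2 was somewhat higher. At the brightest probe set of each gene, 8 of 9 means were lower in RST mice, as were 67.6% of the means of all 11762 genes tested, and 1 was higher, as were 32.4%. At an unadjusted p under 0.05 and more than 1.5-fold, 4 of the 9 genes were lower and none was higher. Over all genes 12.8% were lower by this rule and 2.8% were higher. Log2 fold changes (RST minus control throughout) had a median of −0.62 over the 9 genes and −0.24 over all genes. No member passed limma's Benjamini-Hochberg adjusted threshold of 0.05, and neither did any of the 25084 probe sets tested, of which 3419 had an unadjusted p under 0.05, where the smallest adjusted p was 0.32. With a trended and robust prior, limma called 35 probe sets, none of them the brightest probe set of a member.

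Arrays that stand apart bear on every value below. Hybridization controls, transcripts added in fixed amount, had a mean log2 level of 11.93 and 11.90 in control mice 1 and 2 and between 12.35 and 12.74 in the other 6 mice. The median tested gene lay between 5.25 and 5.59 in control mice, between 5.11 and 5.36 in RST mice 1 to 3 and at 4.53 in RST mouse 4. Values relative to this median gene are therefore given beside the deposited ones, and ratios between genes of the same mouse, in which a uniform shift of an array cancels, are given after them.

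**Figure D1:**
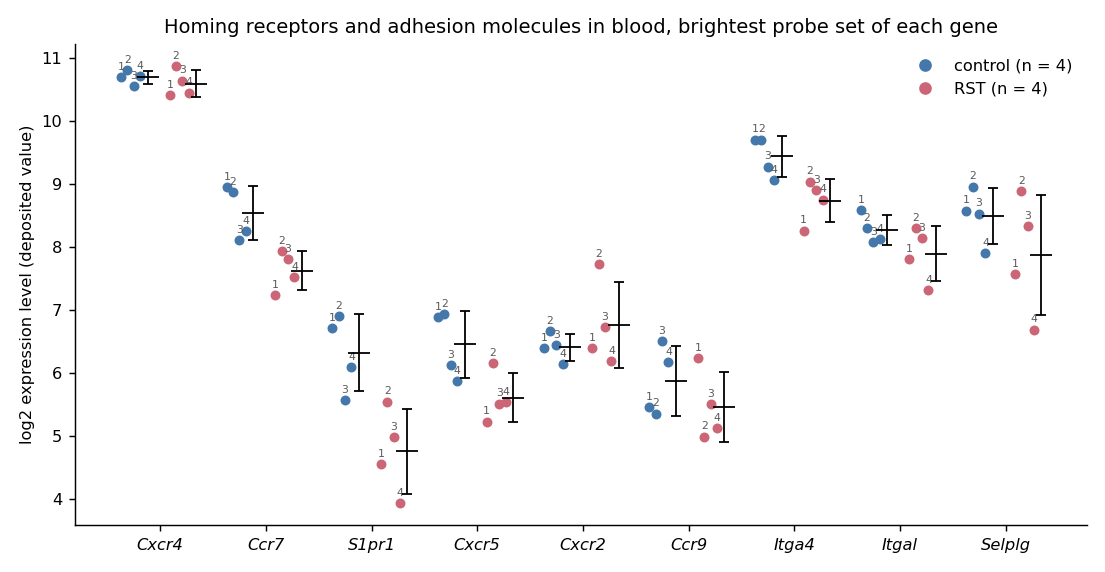
Log2 expression level of the 9 genes in each mouse, at the brightest probe set of each gene. Points are mice, numbered as in the labels, and black bars give mean ± SD (n = 4 per group). The RST mice lie below all control mice for Ccr7, S1pr1 and Itga4, and the groups overlap for the other 6 genes.

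S1pr1 (probe set 1423571_at), the receptor for lymphocyte egress, showed the widest difference of the 9 genes. Its log2 level was 6.71, 6.90, 5.56 and 6.10 in control mice 1 to 4 and 4.55, 5.54, 4.98 and 3.93 in RST mice 1 to 4. Every RST mouse lay below every control mouse, although RST mouse 2 (5.54) and control mouse 3 (5.56) all but touched. The log2 fold change was −1.57 (standard error 0.40), which is 2.96-fold lower in RST mice. The exact permutation test over mice, two-sided here and throughout, gave p = 0.029, the smallest value that 4 mice against 4 allow, and limma gave p = 0.0022 before and 0.32 after adjustment. Relative to the median gene the difference was −1.20 and the groups still did not overlap, as held for 2.82% of all genes in this direction. It stayed at −1.29 without RST mouse 4 and at −1.08 without control mice 1 and 2. Across all genes, 6.57% did not overlap between groups with RST lower.

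Ccr7 (probe set 1423466_at), the receptor of naive and central memory lymphocytes for lymph nodes, was at 8.94, 8.87, 8.11 and 8.24 in control mice and at 7.23, 7.93, 7.80 and 7.52 in RST mice. The groups did not overlap (permutation p = 0.029). The log2 fold change was −0.92 (standard error 0.29, 1.89-fold lower; limma adjusted p = 0.32). The lowest control mice were 3 and 4, and without control mice 1 and 2 the difference was −0.56. It was also −0.56 relative to the median gene, and the groups then overlapped (permutation p = 0.057).

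Cxcr5 (probe set 1422003_at), the B cell follicle receptor, was at 6.88, 6.93, 6.12 and 5.87 in control mice. In RST mice it was at 5.22, 6.15, 5.51 and 5.54, so that RST mouse 2 reached the range of the controls. The log2 fold change was −0.85 (standard error 0.33; limma adjusted p = 0.33; permutation p = 0.086). After quantile normalization it was −0.50, and relative to the median gene it was −0.48.

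Cxcr4 (probe set 1448710_at), the marrow retention receptor, had nearly the same mean in both groups. It was at 10.69, 10.80, 10.55 and 10.71 in control mice and at 10.40, 10.87, 10.64 and 10.44 in RST mice. The log2 fold change was −0.10 with a 95% confidence interval from −0.63 to 0.43, so that a change of 1.5-fold downward was not excluded (limma adjusted p = 0.87; permutation p = 0.46). Its sign turned relative to the median gene, to 0.26 (permutation p = 0.11).

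Cxcr2 (probe set 1421734_at), which neutrophils use to follow CXCL1 and related chemokines, was the only member with a higher mean in RST mice. It was at 6.40, 6.66, 6.43 and 6.14 in control mice and at 6.40, 7.72, 6.73 and 6.18 in RST mice. The groups overlapped, and RST mouse 2 alone stood well above the rest. The log2 fold change was 0.35 (standard error 0.34, 95% confidence interval −0.40 to 1.10; limma adjusted p = 0.64). Without RST mouse 2 it was 0.031. Relative to the median gene it was 0.72 and all 4 RST mice lay above the control mice (permutation p = 0.029), as they did for 7.21% of all genes.

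Ccr9, the gut and thymus homing receptor, gave no single answer over its 5 probe sets. The brightest, 1436065_at, was at 5.46, 5.35, 6.50 and 6.16 in control mice and at 6.23, 4.99, 5.50 and 5.12 in RST mice, which overlapped (log2 fold change −0.41, standard error 0.36; limma adjusted p = 0.61). The difference lay between −0.66 (without RST mouse 1) and −0.20 (without control mouse 3) when 1 mouse was left out, and was −0.045 relative to the median gene. A dimmer probe set, 1421920_a_at, did not overlap, with 5.66 to 6.04 in control and 4.13 to 5.60 in RST mice and a log2 fold change of −0.80 (standard error 0.33; permutation p = 0.029). Probe set 1442758_at had a mean 0.34 higher in RST mice, and the other 2 were at −0.030 and −0.23. One of these, 1427419_x_at, carries the suffix by which the maker marks probes that may also match other transcripts.

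**Figure D2:**
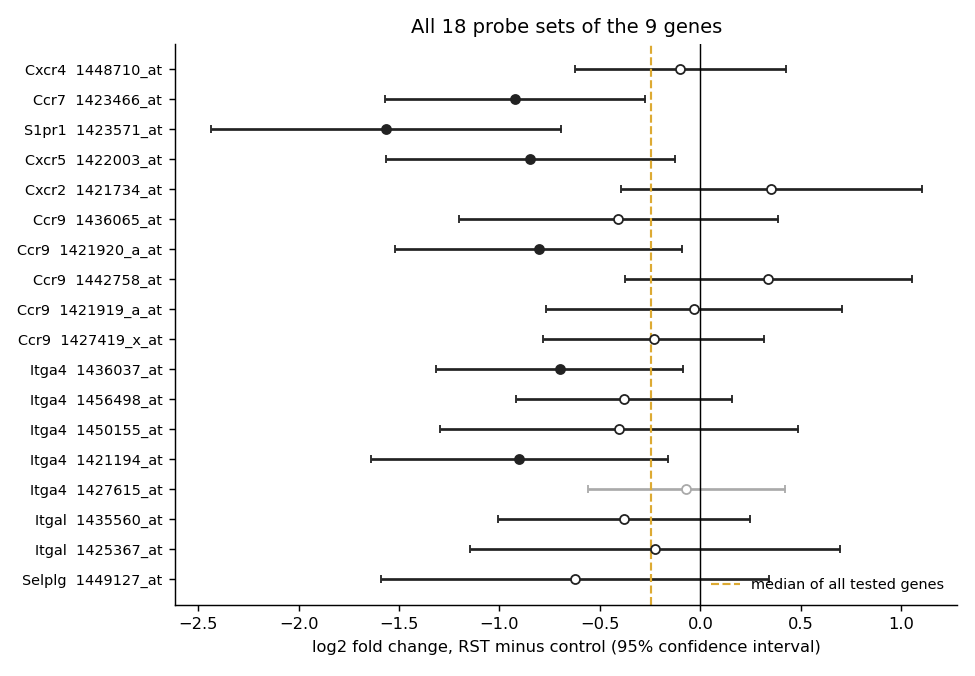
Log2 fold change (RST minus control) of all 18 probe sets with its 95% confidence interval from limma. Filled points passed an unadjusted p under 0.05 and 1.5-fold, the grey point is the probe set below the intensity filter, and the dashed line is the median of all tested genes (−0.24). The 6 filled points, 1 each for Ccr7, S1pr1, Cxcr5 and Ccr9 and 2 for Itga4, all lie left of 0.

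Of the adhesion molecules, Itga4, the alpha chain of VLA-4 and of the gut homing integrin alpha4beta7, was lower in RST mice at its brightest probe set, 1436037_at. It was at 9.70, 9.70, 9.27 and 9.06 in control mice and at 8.25, 9.03, 8.89 and 8.75 in RST mice. The groups did not overlap, with RST mouse 2 just below control mouse 4 (log2 fold change −0.70, standard error 0.28; limma adjusted p = 0.34; permutation p = 0.029). The other tested probe sets were at −0.38 (without overlap), −0.41 and −0.90 (both with overlap), and the one below the filter at −0.071. So the means of all 4 tested probe sets were lower in RST mice, by unequal amounts, and 2 of the 4 passed the unadjusted threshold. Relative to the median gene the brightest was at −0.34 and overlapped. The other tested probe sets were then at −0.018, −0.042 and −0.54, all with overlap.

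Itgal (probe set 1435560_at), the alpha chain of LFA-1, which binds ICAM-1, was at 8.58, 8.29, 8.07 and 8.12 in control mice and at 7.81, 8.30, 8.13 and 7.31 in RST mice. The groups overlapped (log2 fold change −0.38, 95% confidence interval −1.01 to 0.25; limma adjusted p = 0.55). The dimmer probe set was at −0.23 and overlapped too. The brighter was at −0.19 without RST mouse 4, and at −0.016 relative to the median gene.
Selplg (probe set 1449127_at), the ligand of P-selectin, was at 8.57, 8.95, 8.52 and 7.90 in control mice and at 7.56, 8.88, 8.32 and 6.68 in RST mice. RST mice 2 and 3 lay within the control range, and RST mouse 4 was the lowest of the 8 (log2 fold change −0.62, standard error 0.44; limma adjusted p = 0.52; permutation p = 0.29). Without RST mouse 4 the difference was −0.23, and without RST mouse 2 it was −0.96. It was −0.26 relative to the median gene.

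Of the 17 tested probe sets, 6 were lower in RST mice at an unadjusted p under 0.05 and 1.5-fold and 0 were higher. Over all probe sets 10.4% were lower by this rule and 2.89% were higher. RST and control mice did not overlap at 5 of the 17, lower in RST mice, and at 0 higher, against 5.76% and 2.23% of all probe sets tested. Leaving out 1 mouse brought the count to between 3 and 7, with 3 without control mouse 1, control mouse 2 or RST mouse 1. Without control mice 1 and 2 together it was 1, that of S1pr1. After quantile normalization it was 4, of which 3 were lower and 1, that of Cxcr2, was higher, where 6.34% and 5.64% of all probe sets were lower and higher. Against the median gene 2 passed, S1pr1 lower and Cxcr2 higher, where 2.85% of all probe sets were lower and 11.4% were higher.

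Ratios within a mouse set the receptors of lymphocytes against that of neutrophils. The log2 level of S1pr1 minus that of Cxcr2 was 0.32, 0.24, −0.87 and −0.040 in control mice and −1.84, −2.18, −1.75 and −2.25 in RST mice, a shift of −1.92 (standard error 0.30). All 4 RST mice lay below the lowest control mouse. The shift was between −2.18 and −1.78 when any 1 mouse was left out, and −1.55 without control mice 1 and 2. Ccr7 minus Cxcr2 shifted by −1.28 (standard error 0.30) and Cxcr5 minus Cxcr2 by −1.20 (standard error 0.27), again with no overlap.
Cxcr4 was compared with the lymphocyte receptors in the same way. Cxcr4 minus Ccr7 was 1.75, 1.93, 2.44 and 2.47 in control mice and 3.17, 2.94, 2.83 and 2.92 in RST mice, a shift of 0.82 (standard error 0.20). Cxcr4 minus S1pr1 shifted by 1.47 and Cxcr4 minus Itga4 by 0.60, both without overlap, whereas Cxcr4 minus Cxcr5 shifted by 0.75 and overlapped (permutation p = 0.057). Over 12 other settings the shift of Cxcr4 minus Ccr7 was as small as 0.51 and that of Cxcr4 minus S1pr1 as small as 1.04. Ccr7 minus Cxcr5, by contrast, lay between 1.95 and 2.37 in control mice and between 1.78 and 2.29 in RST mice (shift −0.076, standard error 0.14), a difference within the spread between mice. After quantile normalization it was −0.33 (permutation p = 0.11).
In all, 10 of the 36 pairs (27.8%) did not overlap between groups, against 8.42% of all pairs of tested genes. Pairs share genes, and 6 of the 10 include Cxcr2. Each of the 10 had the smallest p that the exact permutation test allows, 0.029, two-sided, which was 0.10 after Benjamini-Hochberg adjustment over the 36 pairs and did not pass.

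**Figure D3:**
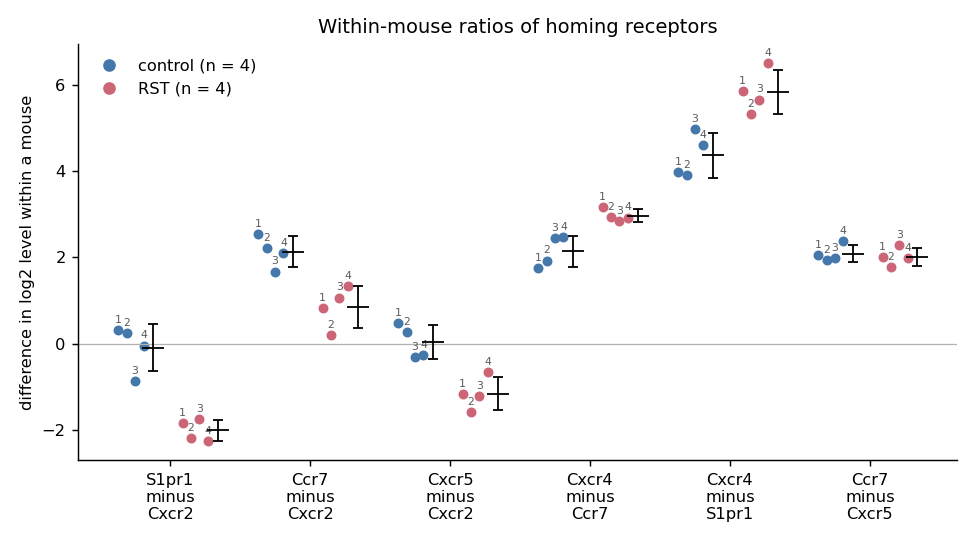
Difference in log2 level between 2 receptors within each mouse, for 6 of the 36 pairs. Points are mice, black bars give mean ± SD (n = 4 per group). RST and control mice do not overlap for the 5 pairs on the left, S1pr1 minus Cxcr2 being at −1.75 or below in every RST mouse, and they overlap for Ccr7 minus Cxcr5.

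In whole blood, fewer cells of a type and less RNA per cell cannot be told apart, and markers of several cell types also differed between the groups. All 13 B cell markers tested were lower in mean under RST, and their summed level (log2) ran from 11.98 to 12.98 in control and from 11.39 to 11.61 in RST mice. The 14 T cell markers were all lower in mean too, with a summed level of 11.15 to 11.72 in control and 10.14 to 11.17 in RST mice. The 14 neutrophil markers divided, 6 lower and 8 higher, and their summed level overlapped, from 12.98 to 13.80 in control and from 12.09 to 13.66 in RST mice. The mean difference of this sum, in which S100a9 (−0.55) and S100a8 (−0.53) were the brightest genes, was −0.56. By the mean log2 level it was −0.43, with overlap, and the median log2 fold change of the 14 markers was 0.050. Cxcr2 was at 0.35. RST mouse 2, which had the highest Cxcr2, also had the highest neutrophil sum of the RST mice. Control mouse 1 had the highest sum of all (13.80) and RST mouse 1 the lowest (12.09), and both had Cxcr2 at 6.40. Whether Cxcr2 followed the neutrophil content of the blood was not tested. Of the defining markers, Pax5 was below the filter in this blood, and Lck, Tcf7, Ly6g and Retnlg were not analysed here. Sums of NK cell markers did not overlap (11.10 to 11.83 in control, 10.44 to 10.99 in RST mice), nor did those of eosinophils and basophils (6.90 to 8.57, against 6.12 to 6.55). Sums of monocyte markers (12.53 to 13.66, against 12.20 to 12.83) overlapped, as did those of platelet markers, which differed in mean by 0.063. Reticulocyte and erythroid markers were higher in mean for 13 of 14 genes, with a sum of 15.08 to 15.33 in control and 15.40 to 15.50 in RST mice. A sum is weighted toward the brightest genes. By the mean log2 level instead, NK cell markers overlapped (6.95 to 7.68 in control, 6.10 to 7.19 in RST mice). Reticulocyte and erythroid markers then overlapped too (7.87 to 8.76, against 8.64 to 9.47). The parts of these shifts in the receptor values were not tested. Of 8 heart muscle genes, looked at because blood was drawn by cardiac puncture, 6 were below the filter. The other 2 were highest in control mouse 2, Myl2 at 7.07 against 2.42 to 3.28 in the other control mice and 2.60 to 5.36 in RST mice, and Myl3 at 6.74 against 4.35 to 5.16 and 4.32 to 5.48. Their part in the receptor values was not tested, and without control mouse 2 S1pr1 was at −1.37.

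Set against the mean of the B cell markers of the same mouse, Cxcr5 differed little between the groups. Its level relative to them was −1.84, −1.90, −1.96 and −1.95 in control mice and −2.06, −1.35, −1.80 and −1.63 in RST mice, a shift of 0.20 (standard error 0.15; permutation p = 0.29). Ccr7 relative to the T cell markers shifted by −0.17 (standard error 0.27) and overlapped as well, as did Ccr7 relative to the B cell markers (0.12).
S1pr1 differed from these. Relative to the T cell markers it was at −0.86, −0.34, −1.36 and −1.08 in control mice and at −2.07, −1.45, −1.53 and −1.84 in RST mice, a shift of −0.82 (standard error 0.26). All RST mice were lower (permutation p = 0.029, or 0.11 adjusted over the 27 values computed), as were 0.17% of all genes relative to the same markers. The groups overlapped after quantile normalization (−0.80, permutation p = 0.057), and the shift was −0.50 without control mice 1 and 2. Its shift relative to the neutrophil markers was −1.14, again with all RST mice lower, as for 0.187% of all genes. Relative to the B cell markers S1pr1 shifted by −0.52 and overlapped.
Cxcr4 shifted by 0.65 (standard error 0.23) relative to the T cell markers and by 0.95 relative to the B cell markers, with every RST mouse above every control mouse. That is a common result, since 18.2% and 30.3% of all genes did the same, and after quantile normalization the shift relative to the T cell markers was 0.33 and overlapped (permutation p = 0.057). Cxcr2 relative to the neutrophil markers was at −1.38, 0.17, −0.50 and −0.55 in control and at 0.44, −0.24, 0.14 and 0.53 in RST mice, a shift of 0.78 that overlapped (permutation p = 0.086). It lay between 0.51 and 1.03 when 1 mouse was left out, 0.51 being without control mouse 1. The granule protein genes Ngp (−2.98), Camp (−2.37) and Ltf (−1.79) passed the unadjusted rule, although their groups overlapped. Control mouse 2, at 4.30, 3.88 and 4.29 in turn, lay among the RST mice. Without these 3 genes, chosen after their values were seen, the shift of Cxcr2 was 0.25 (standard error 0.28). No member lay wholly above the control mice relative to the neutrophil markers, as 0.408% of all genes did. Relative to the T cell markers Itgal shifted by 0.37 with no overlap, Itga4 by 0.049 and Selplg by 0.13, the last 2 with overlap.

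The other genes of leukocyte trafficking were looked at as 7 lists, of which 74 of 99 genes had a tested probe set. Of these 10 were lower and 1 was higher at an unadjusted p under 0.05 and 1.5-fold, near the shares over all genes (12.8% lower, 2.8% higher), and none passed the adjusted threshold. Their median log2 fold change of −0.32 lay near the −0.24 of all genes.
Among receptors for lipids and other signals of egress, 2 of 6 were lower by this rule. Gpr183, an oxysterol receptor that positions B cells and other leukocytes, was at 6.86, 6.93, 5.71 and 5.81 in control mice and at 5.21, 5.38, 5.56 and 4.24 in RST mice. The groups did not overlap (log2 fold change −1.23, standard error 0.39). S1pr4, a second sphingosine-1-phosphate receptor of leukocytes, was at −0.96 (standard error 0.37).
Of 10 further chemokine receptors, Ccr2, by which monocytes leave the marrow, was lower (−0.75, standard error 0.33). Ackr1 was higher, at 5.95, 5.42, 6.33 and 6.24 in control and 7.13, 7.15, 7.01 and 6.30 in RST mice (0.91, standard error 0.31). It encodes the Duffy antigen, a chemokine-binding protein of red cells and vessels that does not signal. RST mouse 4 lay just below control mouse 3, so that the groups overlapped.
Of 15 genes of receptor signalling and S1pr1 regulation, 5 were lower and 0 higher. Coro1a, which encodes the actin regulator coronin 1A that T cells need to leave the thymus, was at 11.92, 11.91, 11.21 and 11.20 in control and 10.62, 11.01, 10.65 and 10.73 in RST mice (−0.81, standard error 0.28), with no overlap. Foxo1, a transcription factor upstream of Klf2 and Ccr7, was at −0.96 (standard error 0.38).
Of the integrin partner chains, Itgb7, which joins the product of Itga4 to form the gut homing receptor, was at −0.77 (standard error 0.32) and was the 1 gene of 11 past the unadjusted rule. Itga2, a collagen receptor chain, was at 0.68 (standard error 0.55) and overlapped. Of the integrin activation genes 0 of 12 passed, and Cyth1 (−0.66) and Rassf5 (−0.51), the latter a partner of Rap1 in switching on LFA-1, had the smallest p.
None of the 11 selectin genes, selectin ligands and glycosyltransferases passed either, with Fut4 at −0.90 and Tpst2 at −0.61.
Of 9 ligands of the receptors, Cxcl12, the ligand of CXCR4, was the 1 past the rule. It was at 6.80, 3.85, 4.96 and 5.72 in control mice and at 3.19, 3.45, 3.87 and 3.29 in RST mice, so that control mouse 2 lay among the RST mice (−1.88, standard error 0.51). The RST values were dim, near the medians of their arrays (3.46, 3.32, 3.42 and 3.19). Icam1, a ligand of LFA-1, was at −0.81 (standard error 0.38).

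**Figure D4:**
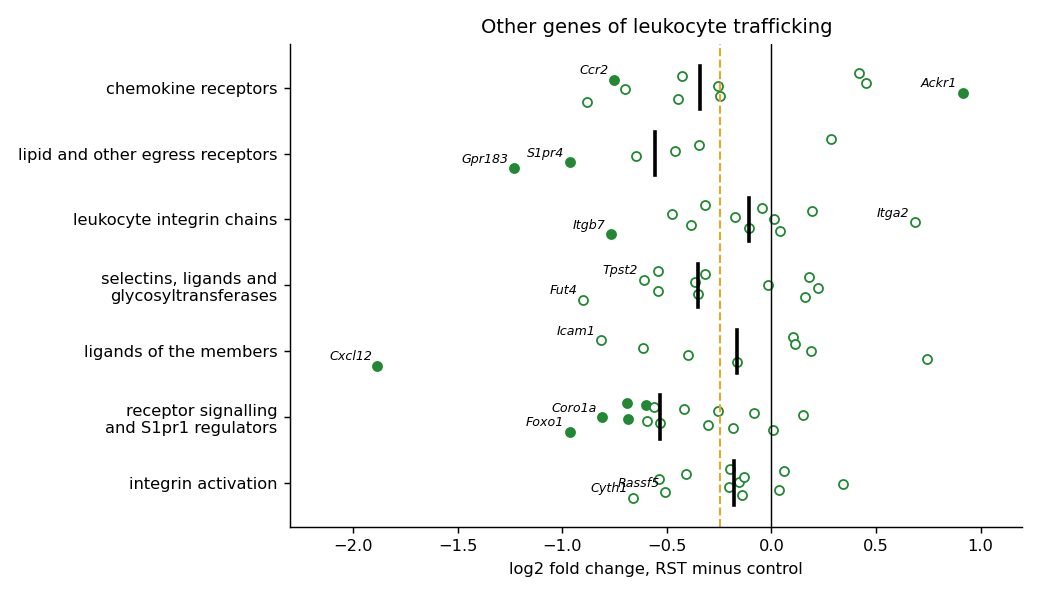
Log2 fold change (RST minus control) of 74 other genes of leukocyte trafficking in 7 lists, 1 point per gene at its brightest tested probe set. Filled points passed an unadjusted p under 0.05 and 1.5-fold, black bars are list medians, the dashed line is the median of all genes (−0.24), and the 2 genes with the smallest p are named. The egress receptor and the signalling lists have the lowest medians, −0.56 and −0.53.

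The genes most like each member over the 8 mice were found by the root mean square difference between profiles, each taken relative to the median gene and to its own mean. C5ar1, the receptor for complement C5a, was nearest to Cxcr2, at 0.11 log2 units where the median over all genes was 0.61. Nearest to S1pr1 were BC028528 (0.18) and Donson (0.20), against a median of 0.85. Nearest to Ccr7 were Lpcat1 and Sulf2 (0.10 for both), and nearest to Cxcr5 were Tbc1d1 (0.12) and Cd37 (0.13), which encodes a tetraspanin of B cells. For Cxcr4 the nearest were Eif2s3x (0.062) and Jak1 (0.077), for Itga4 Sf1 (0.093) and Slc25a3 (0.10), and for Itgal Zfp771 (0.075) and Bbx (0.078). Lyst (0.12) and Ankfy1 (0.15) were nearest to Selplg, Ticrr (0.16) and 1700047M11Rik (0.17) to Ccr9, and Nudt22 (0.17) came next for Cxcr2.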

How the data were processed

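Each array was given as log2 values that the authors deposited after background correction, summarization per probe set and normalization. Tools named in the submitters' processing notes are RMA, Partek and Affymetrix Expression Console 1.2.0.20, whereas the methods describe GSRMA. The medians of the 8 arrays lay between 3.19 and 3.46 and their quartiles differed, so the arrays were not fully equalized. Which of these steps set the scale is not given in the sources used here. Scanner values, slides and scan dates were not used here. A probe set was tested when it exceeded the median of its array in at least 2 of the 4 arrays of a group (25084 probe sets, 64 controls left out). The groups were fitted by lmFit and eBayes (limma 3.58.1, run under R 4.3.3, Benjamini-Hochberg adjustment over all probe sets tested), with a threshold of an adjusted p under 0.05 and 1.5-fold. The unadjusted rule uses p under 0.05 with the same fold. A gene is given at its brightest probe set (11762 genes). The probe set below the filter comes from a fit of all probe sets. Symbols are those of the platform annotation, brought up to date through the Entrez identifier for 34754 of the 34958 probe sets with 1 gene. The annotation gave several genes for 932 probe sets, which were not named.

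The members and lists were chosen with earlier results of these data known. The comparisons within a mouse (36 pairs of members, and 27 values relative to 3 marker lists) were added after values were seen, as were leaving out control mice 1 and 2 together and leaving 3 granule genes out of the neutrophil markers. Standard errors of these ratios come from the 4 values of each group. Named are all members, the 2 genes with the smallest p of each trafficking list, and the 2 genes most like each member. Markers were chosen for mention after their values were seen. Data were simulated with the spread of each probe set, equal in both groups, but without the shifts shared across an array that the real arrays show. On them, limma called 64% of 50 probe sets changed 4-fold. It called 20% of those changed 3-fold, 4% of those changed 2-fold and 0% of those changed 1.5-fold. There were 2 false calls. Each array is a separate mouse, and precision is limited by their number. Deviations of same-numbered RST and control mice from their group means had correlations of −0.24, 0.42, 0.046 and 0.20, not all above 0.1, and no pairing was used. The plots were made in Python 3.11.15 (matplotlib 3.10.9).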

Additional observations from a re-analysis of the deposited data

Results flagged for a closer look

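The summed level of 13 platelet markers in RST mouse 4 was 13.96 (log2), apart from the other RST mice, of which the nearest was at 14.29. It was the 1 value that stood apart from its group among 54 groups of 4 mice examined (18 probe sets and 9 marker lists in each group), where chance flags about 5% of groups. RST mouse 4 also had the lowest median gene and the lowest S1pr1, Itgal and Selplg of the 8 mice. That is common for this array, which held the lowest value for 41.5% of all tested probe sets. The share was between 4.17% and 10.6% in the other mice.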

How the results depend on the processing

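Over 19 settings each, with changes to filter, scaling, prior, test, weights, block, probe set and mice, the log2 fold changes of 8 members kept their direction, S1pr1 between −1.83 and −1.20 and Ccr7 between −1.13 and −0.56. Cxcr4 reversed relative to the median gene (0.26). None passed the adjusted threshold under any of these, the smallest adjusted p being 0.100, for S1pr1 with array weights. The ratio of Ccr7 to Cxcr5 ranged from −0.17 to 0.018 on leaving out each mouse in turn, and the level of Ccr7 relative to the T cell markers from −0.37 to 0.0071, reaching 0.019 without control mice 1 and 2. These ranges span 0. After quantile normalization both were −0.33. Without the granule genes Camp, Ngp and Ltf the level of Cxcr2 relative to the neutrophil markers was 0.25. Probe sets called over the whole array numbered 35 with a trended and robust prior and 0 otherwise. At the unadjusted rule, 3337 probe sets passed in the main analysis, 5539 with array weights, 4915 when scaled to control probe sets, 1731 without control mouse 1, 1751 without control mouse 2 and 856 without both. The stricter filter left 13116 probe sets, of which 2379 passed. The share of lower ones moved from 78.3% to 52.9% after quantile normalization, 94.1% when scaled to control probe sets, 53.5% without RST mouse 4 and 20.1% relative to the median gene. The member probe sets past this rule numbered 3 to 7 on leaving out each mouse in turn and 1 without control mice 1 and 2. With the replicate number as a replicate block the fold change of S1pr1 was −1.57 (adjusted p = 0.22 in limma), 6 member probe sets and 4234 probe sets in all passed the unadjusted rule, and no adjusted call changed. The number of mice limits what could be called, and whether it accounts for the few calls was not tested. The cause of the changes with scaling was not tested.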
